A study of Mus musculus with 27 samples.

Results

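Complement genes of the liver were followed in laser-captured zones of the mouse liver lobule before and during pregnancy. The set holds 9 genes, taken by symbol from the expression table: C3, C4b, Hc, C6, C8a, C8b, C8g, C9 and Cfb. The table lists 21823 genes, of which 12952 reached 1 FPKM in 3 or more libraries and were tested, and all 9 complement genes were among them. FPKM counts sequenced fragments relative to the length of the transcript and the size of the library, so levels of different genes can be set side by side. The summed FPKM differed between stages: outside the libraries that stood apart, which are named further on, it was 588919 to 704327 in NP, 567659 to 650820 in dpc8 and 834568 to 988500 in dpc16 libraries, and its part in the stage comparisons was not tested.

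Wild-type female mice, C57BL/6 by the labels and C57BL/6N by the study's methods, were studied without pregnancy (NP) and at day 8 (dpc8) or day 16 (dpc16) post coitum, and no group carried a transgene or received an agent. The labels give no age. From frozen liver sections of each stage, lobular zones 1, 2 and 3 were cut out with a laser and their RNA was sequenced after removal of ribosomal RNA, with 3 libraries for each of the 9 groups and 27 in all. Zone 1 lies by convention around the portal vein, zone 3 around the central vein, and zone 2 between them. The captured areas hold all cells of the zone, so that fewer cells of a type and less RNA per cell cannot be told apart. The labels do not say whether the 3 libraries of a group came from separate mice. The paper's legends speak of 3 independent experiments, and its methods state different mice for experiments in general. Neither ties a library to a mouse, and p-values therefore measure the spread between libraries.

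Complement is a cascade of plasma proteins that marks microbes and damaged cells, and hepatocytes secrete most of its soluble components. The classical and lectin pathways cleave C4 and the alternative pathway uses factor B, and both routes build enzymes that cut C3 and then C5. Cleaved C5 gathers C6, C7 and C8, a complex of alpha, beta and gamma chains, and many copies of C9 then insert into the membrane as the pore of the membrane attack complex.

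The captured tissue had the markers of hepatocytes and of its zones. The 8 hepatocyte markers, Alb among them, had a mean log2(FPKM + 1) of 10.88 to 13.06 over the libraries. Between zone 1 and zone 3, averaged over stages, all 8 periportal markers were higher and all 8 pericentral markers were lower past the threshold of the test used below. The depth was estimated from the steps between low FPKM values at 7540000 to 33410000 fragments per library. There were 6 libraries that stood apart: in NP mice replicate 1 of zone 1 and replicate 2 of zone 3, at dpc8 replicate 1 of zone 1 and replicate 2 of zone 2, and at dpc16 replicate 3 of both zone 2 and zone 3. Although all mice were labelled female, the summed FPKM of 4 Y-linked genes was 7.92 to 23.2 in these libraries and at most 2.97 in the other 21. In the same libraries, the list of 10 markers of stellate cells, connective tissue and smooth muscle had a mean log2(FPKM + 1) of 5.21 to 6.56, against 1.59 to 4.33 in the others, and the hepatocyte markers had 10.88 to 11.81, against 11.66 to 13.06. The complement values were mostly low there too: of 54 values, 9 genes in 6 libraries, 46 were the lowest of their group of 3. The share of such values over all genes was not computed. In replicate 3 of dpc16 zone 2, the ratio of a gene to the mean of the other 2 libraries had a median of 0.321 over the 9 genes. The exception was NP zone 3 replicate 2, where 2 of 9 genes were lowest. The part of these libraries in the results was not tested, and each result is therefore followed by its value without them where the call differs.

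**Figure D1:**
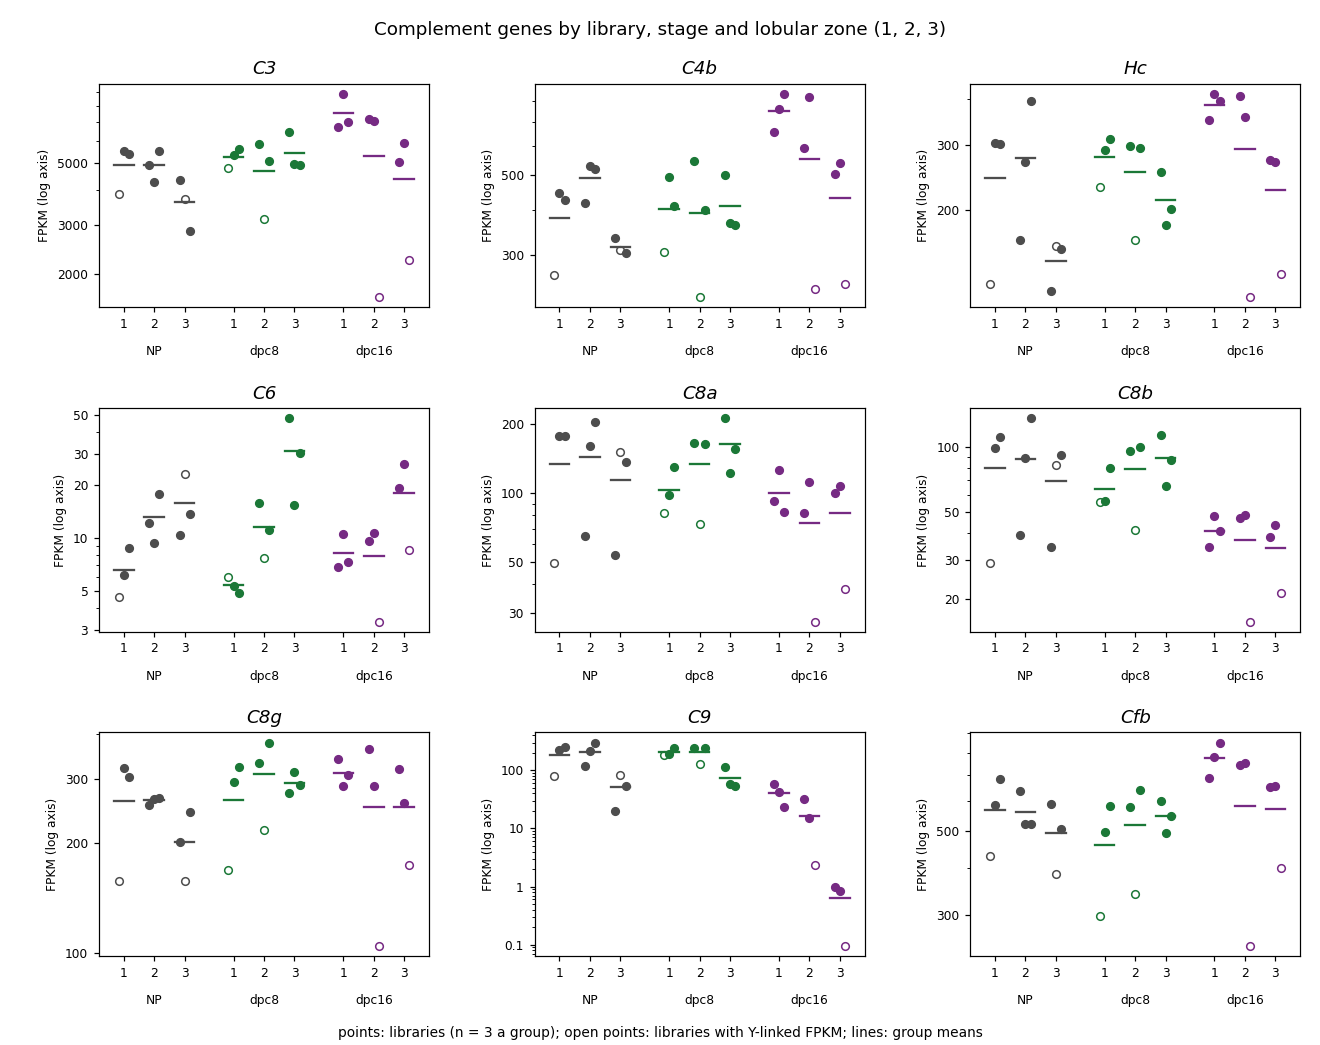
FPKM (log axis) of each complement gene in all 27 libraries, by stage and zone; points are libraries, lines are means of 3 libraries, and open points are the 6 libraries with Y-linked FPKM. C9 spans from 0.0950 to 299 FPKM and is lowest in dpc16 zone 3, while the mean of C6 is highest in zone 3 at each stage.

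The levels of the 9 genes covered a wide range. C3, on which all activation pathways converge, had 1651 to 8847 FPKM and made up 65.4% to 78.3% of the summed FPKM of the 9 genes in a library. Cfb, the protease subunit of the alternative pathway, had 250 to 852 FPKM, and C4b, the C4 component of the classical and lectin pathways, had 229 to 837 FPKM. Hc, the mouse gene for C5, and C8g, the gamma chain of C8, followed with medians of 271 and 287 FPKM. C8a and C8b, the alpha and beta chains, had medians of 112 and 55.6 FPKM. C6 was the lowest by its median, with 10.4 FPKM. The gene with the widest range was C9, with a median of 78.9 FPKM and a highest library 3147 times its lowest. That ratio rests on replicate 3 of dpc16 zone 3, which stood apart and had 0.0950 FPKM, and without this library it was 354. In the other 8 genes the ratio over all libraries lay between 3.41 and 14.4.

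The order of the 9 groups within a gene was seldom resolved. Of the 8 pairs of neighbouring groups in that order, 6 to 8 overlapped in their libraries for each gene. For C9, only the last step was clear of overlap: dpc16 zone 3 lay below dpc16 zone 2, which had the next lowest mean.

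C9, which polymerises into the pore, is at chr15:6445327-6498751 (mm10, + strand). In NP mice, the 3 zone 1 libraries had 78.9, 221 and 254 FPKM, the zone 2 libraries had 117, 212 and 299 FPKM, and the zone 3 libraries had 20.2, 82.8 and 53.5 FPKM, in the order of their replicate numbers. Zones 1 and 2 were alike in range, and zone 3 was lower except that its replicate 2 exceeded replicate 1 of zone 1. At dpc8, the libraries had 184, 191 and 239 FPKM in zone 1, 243, 127 and 237 FPKM in zone 2, and 112, 57.9 and 54.2 FPKM in zone 3. Here all 3 zone 1 libraries lay above all 3 zone 3 libraries, as was so for 12.8% of all genes. At dpc16, the values were 56.9, 42.4 and 23.0 FPKM in zone 1, 32.7, 14.9 and 2.33 FPKM in zone 2, and 0.964, 0.844 and 0.0950 FPKM in zone 3. The zone 3 values rest on an estimated 24.0, 27.2 and 4.0 fragments, so that C9 was close to the limit of detection there, and zones 1 and 3 did not overlap.

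C6, which binds cleaved C5 and starts assembly of the pore, is at chr15:4727175-4814967 (mm10, + strand), 1630.36 kilobases from C9 on the same chromosome. The NP libraries had 4.62, 6.20 and 8.85 FPKM in zone 1, 12.2, 9.36 and 17.9 FPKM in zone 2, and 10.4, 23.2 and 13.8 FPKM in zone 3. Zone 1 was the lowest zone by its mean and did not overlap with zone 3, and 6.05% of all genes were separated in this direction. At dpc8, C6 had 6.03, 5.32 and 4.89 FPKM in zone 1, 15.9, 7.76 and 11.2 FPKM in zone 2, and 48.2, 15.5 and 30.5 FPKM in zone 3. All zone 3 libraries exceeded all zone 1 libraries again, as in 10.5% of all genes. The dpc16 libraries had 6.86, 10.5 and 7.29 FPKM in zone 1, 9.58, 10.7 and 3.35 FPKM in zone 2, and 19.3, 26.5 and 8.56 FPKM in zone 3. Replicate 3 of zone 3, one of the libraries that stood apart, fell within the range of zone 1.

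Promoters are shown for C9 and C6, which lie on 1 chromosome and were zoned in opposite directions, and for the neighbours C8a and C8b. Each sequence is the RefSeq window on GRCm38.p6 from 250 bases before to 50 bases after the annotated start, read along the gene. The windows were searched on both strands for 6 motifs, and capitals mark the matches. The letters searched were TATAAA for the TATA box, GTTAAT for the HNF1 motif, TTGCNNAA for C/EBP factors, TTCNNNGAA for STAT factors, GAAANNGAA for IRF factors and CTTTGAT for TCF factors, with no overlapping match in the windows shown.
C9, chr15:6445096-6445395, + strand: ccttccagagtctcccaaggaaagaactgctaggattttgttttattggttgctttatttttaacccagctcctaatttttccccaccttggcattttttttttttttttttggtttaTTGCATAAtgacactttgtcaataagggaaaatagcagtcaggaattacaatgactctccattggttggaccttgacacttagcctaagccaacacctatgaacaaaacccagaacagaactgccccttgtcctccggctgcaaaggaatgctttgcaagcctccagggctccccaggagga
C6, chr15:4726960-4727259, + strand: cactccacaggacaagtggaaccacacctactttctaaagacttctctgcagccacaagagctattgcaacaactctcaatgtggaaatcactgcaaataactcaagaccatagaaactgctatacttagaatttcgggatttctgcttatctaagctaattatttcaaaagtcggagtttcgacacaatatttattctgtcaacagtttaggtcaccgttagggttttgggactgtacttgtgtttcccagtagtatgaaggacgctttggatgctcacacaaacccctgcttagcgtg
C8a, chr4:104876349-104876648, - strand: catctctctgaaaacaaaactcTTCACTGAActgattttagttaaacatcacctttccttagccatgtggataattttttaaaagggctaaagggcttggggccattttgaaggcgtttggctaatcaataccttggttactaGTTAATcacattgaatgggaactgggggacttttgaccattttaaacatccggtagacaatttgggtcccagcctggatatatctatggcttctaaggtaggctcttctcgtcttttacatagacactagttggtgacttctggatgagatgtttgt
C8b, chr4:104766067-104766366, + strand: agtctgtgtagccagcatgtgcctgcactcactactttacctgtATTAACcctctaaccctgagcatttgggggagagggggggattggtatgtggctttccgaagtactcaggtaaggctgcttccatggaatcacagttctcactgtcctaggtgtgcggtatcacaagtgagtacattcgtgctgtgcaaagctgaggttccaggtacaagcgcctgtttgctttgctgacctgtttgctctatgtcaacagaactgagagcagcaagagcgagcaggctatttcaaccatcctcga
The C9 window held 1 C/EBP match at bases -132 to -125 from the start (the start base counted as 0), and the C6 window held none of the 6 motifs. C8a held a STAT match at -228 to -220 and an HNF1 match at -107 to -102, and C8b held an HNF1 match on the opposite strand at -206 to -201. Over all 32851 windows of the table, the C/EBP letters were in 10.8%, the STAT letters in 8.3% and the HNF1 letters in 7.1%. The TATA, IRF and TCF letters were in 13.6%, 8.56% and 3.73%. Of the 9 genes, 7 had a window, and C8g had 2. Besides those shown, C3 held the C/EBP and TATA letters, Hc held the TATA and HNF1 letters, and C8g held none. A match describes letters only and is no evidence that a factor binds there.

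The zone comparison asked which complement genes differ along the lobule. It was made with limma on log2(FPKM + 1), a linear model across all 12952 genes with adjustment by Benjamini-Hochberg and a threshold of 0.05, and log2 fold changes on this scale understate changes of low values. Averaged over the stages, C9 was higher and C6 was lower in zone 1 than in zone 3, and the other 7 genes did not pass the threshold. The log2 fold change of C9 was 2.66 ± 0.15 (SE, 9 differences, adjusted p = 3.87e-06) and that of C6 was -1.42 ± 0.20 (SE, 9 differences, adjusted p = 0.00168). Of all genes tested, 7.32% passed in either direction, against 2 of the 9. Hc, which gives rise to the C5a peptide and the pore's first subunit, had a log2 fold change of 0.62 ± 0.16 (adjusted p = 0.0506), just above the threshold. Hc passed with a pseudocount of 0.1 (adjusted p = 0.0481), with quantile normalization (0.0119), with array weights (9.78e-04, where C3 and C4b were called too and 19.4% of all genes), without NP replicate 1 (0.0315) and without dpc8 replicate 1 (0.0397), and its adjusted p reached 0.181 when single libraries were fitted. C3 had 0.43 ± 0.17 (adjusted p = 0.197) and C4b 0.35 ± 0.19 (adjusted p = 0.343). For C8a, C8b, C8g and Cfb the values lay between -0.03 and 0.16. The median over the 9 genes was 0.16, against 0.04 over all genes. In a fit of single libraries that left out the 6 with Y-linked FPKM, Hc (0.71, adjusted p = 0.00562) and C3 (0.37, adjusted p = 0.0466) were called higher in zone 1 besides C9 and C6, where 8.18% of all genes were called. That fit differs in both the libraries and the unit; with single libraries and none left out, C9 and C6 were called and 5.59% of all genes.

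Within single stages, the zone difference of C9 was called only at dpc16 and that of C6 only at dpc8, while the directions were shared by all stages. For C9 the log2 fold changes of zone 1 over zone 3 were 1.85 ± 0.64 in NP mice (adjusted p = 0.289), 1.51 ± 0.64 at dpc8 (adjusted p = 0.327) and 4.63 ± 0.64 at dpc16 (adjusted p = 8.07e-05), each with 3 libraries a group. As ratios of mean FPKM, zone 1 was 3.54-fold, 2.74-fold and 64.3-fold above zone 3. For C6 they were -1.12 ± 0.44 in NP mice (adjusted p = 0.427), -2.205 ± 0.44 at dpc8 (adjusted p = 0.00641) and -0.94 ± 0.44 at dpc16 (adjusted p = 0.590). As ratios of means, zone 3 had 2.41, 5.80 and 2.201 times the C6 of zone 1. With a replicate block, C9 was also called in NP mice (adjusted p = 0.0119) and at dpc8 (adjusted p = 0.0353), where 2.18% and 3.54% of all genes were called. Limma with array weights also called C9 in NP mice (adjusted p = 0.00998) and at dpc8 (adjusted p = 0.0113). The same setting called C6 at dpc16 (-1.24, adjusted p = 0.0431). All genes were then called at 2.09% in NP mice, 6.6% at dpc8 and 3.83% at dpc16. The C6 call at dpc8 was lost without replicate 1 of dpc8 zone 3 (-1.84, adjusted p = 0.0626). Among the 9 genes, 0 were called in NP mice, 1 at dpc8 and 1 at dpc16, where 1.34%, 1.61% and 1.55% of all genes were called; at an unadjusted p under 0.05 the numbers were 2, 2 and 3, and the shares of all genes 8.02%, 12.2% and 7.86%. Without the libraries with Y-linked FPKM, C9 (2.80, adjusted p = 0.00565) and Hc (1.13, adjusted p = 0.0478) were called in NP mice, where 1.81% of all genes were called.

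None of the other 7 genes passed the limma threshold between zones in a single stage. At dpc16 their adjusted p-values were 0.664 for C3, 0.511 for C4b, 0.687 for Hc and at least 0.920 for Cfb and the 3 genes of C8. At dpc16, 5 genes had all zone 1 libraries above all zone 3 libraries: C9, C3, C4b, Hc and Cfb. Over all genes, 8.36% were separated in this way. Other lists also had positive median log2 fold changes here: 0.57 for 8 hepatocyte markers, 0.75 for 12 acute phase genes, 1.17 for 8 macrophage markers and 0.62 for 16 genes of complement initiation. Limma called 0, 0, 1 and 1 of these genes in the same order, where 1.55% of all genes were called. Markers of stellate cells, connective tissue and smooth muscle went the other way (-0.93), as did the pericentral markers (-4.94). The part of these lists in the complement values was not tested. C3 had 6708, 8847 and 7000 FPKM in zone 1 and 5032, 5891 and 2245 FPKM in zone 3. C4b, a neighbour of Cfb in the major histocompatibility region at chr17:34728380-34743882 (mm10, - strand), had 654, 761 and 837 FPKM in zone 1 and 502, 538 and 249 FPKM in zone 3. In both genes replicate 3 of zone 3, which stood apart, was the lowest. The median log2 fold change of the 9 genes was 0.47 at dpc16, against -0.02 over all genes, 0.23 in NP mice and -0.21 at dpc8. The log2 fold changes of C8g and Cfb between zones ranged from -0.30 to 0.47.

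The stage comparisons asked whether pregnancy changed the complement genes within a zone. At dpc8 none of the 9 genes passed the limma threshold in any zone or in the mean over zones, and few genes of any kind did: 0.0309% in zone 1, 0.00772% in zone 2, 0.0154% in zone 3 and 0.0154% in the mean over zones. At an unadjusted p under 0.05 the number was also 0, where the shares of all genes were 3.13%, 5.06%, 2.74% and 3.17% in the same order. In zone 3 all 9 genes had fitted values above NP, from 0.17 for Cfb to 0.89 for C6, with a median of 0.56 against -0.03 over all genes. Medians of like size were found in some other lists: 0.55 for the acute phase genes, 0.63 for the macrophage markers, 0.78 for the periportal markers and 0.49 for 7 complement receptor genes. Lower medians were found in the rest: 0.30 for the initiation genes, 0.12 for complement regulators, 0.04 for the pericentral and -0.03 for the hepatocyte markers. Markers of sinusoidal endothelium had -0.25, of biliary epithelium -0.58, and of stellate cells, connective tissue and smooth muscle -1.09. The part of these lists was not tested. C3, C4b, Hc and C8g had all dpc8 libraries of zone 3 above all NP libraries, where 4.74% of all genes were separated in this direction. In zones 1 and 2 no gene of the set was separated, and the medians were 0.02 and -0.09. The 95% intervals of the change in the mean over zones reached from -0.94 to 1.21 for C8a, from -0.83 to 1.46 for C9 and from -0.54 to 0.58 for C4b on the log2 scale, and the data do not exclude changes within them. Both pregnant stages were set against the same NP libraries.

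At dpc16, C9 fell in the mean over zones, and no other gene of the set passed. C9 fell by 3.65 on the log2 scale against NP (SE 0.51, 3 units a stage, adjusted p = 0.00766) and by 3.96 against dpc8 (SE 0.51, adjusted p = 0.00658). Of all genes tested, 3.08% and 2.14% were called in these comparisons. By zone, C9 was 4.52-fold lower than NP in zone 1, 12.6-fold lower in zone 2 and 82.2-fold lower in zone 3 by the ratio of mean FPKM. These ratios rested on single libraries in part: in zone 2 the ratio was 24.3 without replicate 1 of dpc16, and with each library left out in turn it ran from 3.67 to 5.82 in zone 1, 8.81 to 24.3 in zone 2 and 57.7 to 111.1 in zone 3. The log2 fold changes were -2.08 ± 0.64 (adjusted p = 0.135), -4.02 ± 0.64 (adjusted p = 9.04e-04) and -4.86 ± 0.64 (adjusted p = 1.01e-04). All 3 dpc16 libraries lay below all 3 NP libraries in each zone, which held for 8.01%, 9.59% and 8.87% of all genes in zones 1, 2 and 3. The zone 1 change, past an unadjusted p of 0.05 but not the adjusted threshold, was called without the libraries with Y-linked FPKM (-2.60, adjusted p = 0.00451). In zone 2 the call was lost when only the groups compared were fitted (-4.02, adjusted p = 0.157), and calls over all genes fell to 0.131% there. The number of genes of the set called in zones 1, 2 and 3 was 0, 1 and 1, where 1.37%, 2.66% and 1.32% of all genes were called. At an unadjusted p under 0.05 it was 2, 2 and 1, where the shares of all genes were 11.0%, 16.6% and 11.5%.

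The larger fall of C9 in zone 3 was not established by the test of the difference. The change at dpc16 in zone 1 minus that in zone 3 was 2.78 ± 0.91 on the log2 scale for C9, with an unadjusted p of 0.00578 and an adjusted p of 0.993. Only 0.054% of all genes were called in this comparison and 0 of the 9, against 1 at an unadjusted p under 0.05, where the share of all genes was 3.16%. With a replicate block (stage and replicate number) the C9 value had an adjusted p of 0.0838, and without the libraries with Y-linked FPKM it was 1.56 with an adjusted p of 1.0. The same number of units of log2(FPKM + 1) stands for different ratios when values fall below 1 FPKM, as C9 did in dpc16 zone 3.

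**Figure D2:**
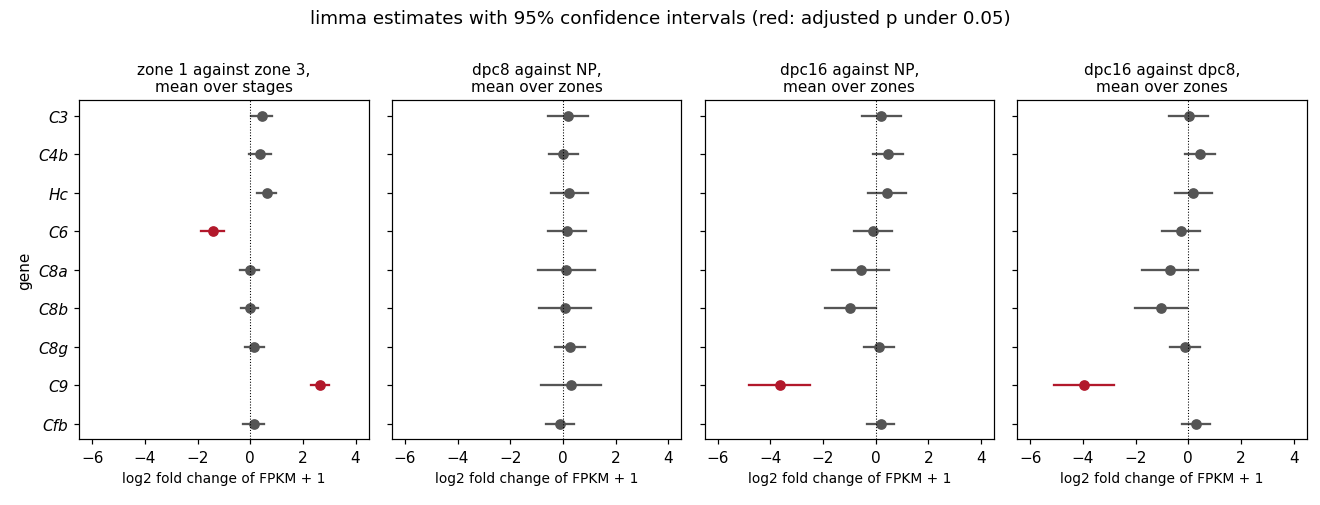
Log2 fold changes of FPKM + 1 with 95% confidence intervals from limma for the 9 genes, in the zone comparison averaged over stages and in the stage comparisons averaged over zones; red marks an adjusted p under 0.05. C9 is red in 3 of the 4 panels and C6 in the zone comparison, and the interval of each other gene is grey.

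C3, C4b, Hc and Cfb had higher values at dpc16 in zone 1, short of the threshold. In zone 1, C3 had 3865, 5529 and 5385 FPKM in NP mice and 6708, 8847 and 7000 FPKM at dpc16. C4b had 265, 446 and 426 FPKM in NP mice and 654, 761 and 837 FPKM at dpc16. Both genes were clear of overlap, and NP replicate 1, which stood apart, was their lowest library. Hc had 126, 303 and 302 FPKM in NP mice and 350, 413 and 394 FPKM at dpc16, and Cfb had 429, 585 and 685 FPKM and 688, 782 and 852 FPKM. In all 4 genes every dpc16 library exceeded every NP library, whereas 9.42% of all genes were separated in this direction. The log2 fold changes were 1.01 ± 0.38 for C4b (adjusted p = 0.268), 0.76 ± 0.42 for Hc, 0.62 ± 0.43 for C3 and 0.47 ± 0.36 for Cfb. Without the libraries with Y-linked FPKM, C4b was called here (0.77, adjusted p = 0.0418), where 2.92% of all genes were called. In zone 2, where 1 dpc16 library stood apart, C3 had 7170, 7068 and 1651 FPKM at dpc16 against 4918, 4276 and 5501 FPKM in NP mice. Replicates 1 and 2 were above the NP range and replicate 3 was below it. The mean over zones was 0.46 ± 0.25 for C4b (adjusted p = 0.418) and 0.21 ± 0.33 for C3 (adjusted p = 0.842). A fit of single libraries without those with Y-linked FPKM changed 2 choices at once, the libraries and the unit. Taken singly, zones of 1 replicate number count as separate units, although they may come from 1 mouse. The p-values of such fits for a mean over zones can therefore be too small. Single libraries with none left out called 11.8% of all genes and 2 of the 9, C9 and C8b, in this mean, and 11.1% and the same 2 against dpc8. With the libraries left out as well, 16.6% of all genes and 6 of the 9 were called: C4b (0.67, adjusted p = 8.07e-04), Hc (0.62, adjusted p = 0.00888), C3 (0.54, adjusted p = 0.00234) and Cfb (0.32, adjusted p = 0.0190) higher, and C8b (-0.83, adjusted p = 0.0307) and C9 (-3.28, adjusted p = 5.26e-07) lower. Against dpc8, the same fit called 18.7% of all genes and 4 of the 9, with C4b (0.56, adjusted p = 0.00305) and Cfb (0.36, adjusted p = 0.00921) higher and C8b (-0.93, adjusted p = 0.0152) and C9 (-3.69, adjusted p = 1.38e-07) lower. Hepatocyte markers moved with these genes: the summed FPKM of the 8 markers was 51821 to 128067 in NP zone 1 and 231610 to 279162 in dpc16 zone 1, a sum in which the most abundant genes weigh most. Limma called 0 of the 8 higher there, and Ttr, for the carrier protein transthyretin, fell in the mean over zones. The acute phase list, whose 12 genes respond to inflammation in the liver, had summed FPKM of 4005 to 8304 in NP zone 1 and of 17696 to 23584 in dpc16 zone 1. In that list 1 of 12 genes, Itih4, rose at dpc16 in the mean over zones (2.57 ± 0.30, adjusted p = 0.00267). The part of either list in the complement values was not tested.

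C8a and C8b lie 11.13 kilobases apart on chromosome 4, C8a at chr4:104815679-104876398 (- strand) and C8b at chr4:104766317-104804548 (+ strand). The NP libraries had 49.3, 177 and 177 FPKM of C8a in zone 1, 64.9, 160 and 205 FPKM in zone 2, and 53.4, 152 and 137 FPKM in zone 3. Replicate 1 was the lowest in every zone, at 49.3 to 64.9 FPKM against 137 to 205 FPKM in the others, and in C8b, Hc and C9 it was the lowest as well. C8b had 29.3, 99.1 and 110 FPKM in NP zone 1, and 34.5, 48.1 and 40.9 FPKM in dpc16 zone 1. The ranges overlapped through NP replicate 1, which was below all of these dpc16 values. At dpc8 C8b had 55.6, 56.2 and 80.1 FPKM in zone 1 and 113, 65.9 and 87.3 FPKM in zone 3, and at dpc16 zone 3 had 38.6, 43.5 and 21.2 FPKM. The highest C8b value of any dpc16 library was 48.5 FPKM, in zone 2. In the mean over zones at dpc16, C8b had -0.96 ± 0.43 against NP (adjusted p = 0.313) and -1.04 ± 0.43 against dpc8 (adjusted p = 0.280), and C8a had -0.57 ± 0.48 and -0.71 ± 0.48. With each library taken as a unit, without the replicate block, C8b passed in both (adjusted p = 0.0424 and 0.0302), where 11.8% and 11.1% of all genes were called. That fit counts zones that may come from 1 mouse as separate units. C8g at chr2:25498651-25501719 (- strand), whose product is a lipocalin and not a pore protein, had 0.13 ± 0.25 against NP. Its libraries had 157, 322 and 305 FPKM in NP zone 1, 169, 295 and 325 FPKM in dpc8 zone 1, and 340, 288 and 308 FPKM in dpc16 zone 1. The 3 stages overlapped, and the lowest NP and dpc8 values came from the libraries that stood apart.

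Ratios between genes of 1 library do not depend on how the library as a whole was scaled, and they are given as a description. C9 stood at 1.25 to 1.60 times C8a in NP zone 1 and at 0.379 to 0.546 times C8a in NP zone 3. At dpc8 the ratio was 1.83 to 2.25 in zone 1 and 0.347 to 0.528 in zone 3, and at dpc16 it was 0.278 to 0.616 in zone 1, 0.0850 to 0.397 in zone 2 and 0.0025 to 0.0096 in zone 3. The zone 1 and zone 3 ranges were therefore clear of each other at each stage, including the libraries that stood apart and NP replicate 1. Hc stood at 1.71 to 4.32 times C8b in the 9 NP libraries, 2.25 to 5.19 times in the 9 dpc8 libraries and 6.22 to 10.1 times in the 9 dpc16 libraries. No dpc16 library overlapped with an earlier stage. C6 was 0.0281 to 0.0586 times C9 in NP zone 1 and 19.99 to 90.1 times C9 in dpc16 zone 3. The ratio of C8a to C8b was 1.47 to 2.68 over all libraries. In zone 1 it was 1.60 to 1.79 in NP mice, 1.47 to 1.75 at dpc8 and 2.02 to 2.68 at dpc16, so that dpc16 lay clear above the earlier stages there. In zones 2 and 3 the stages overlapped. The ratio in zone 2 was 1.51 to 1.80 in NP mice, 1.65 to 1.77 at dpc8 and 1.74 to 2.31 at dpc16. The zone 3 values were 1.49 to 1.85, 1.79 to 1.89 and 1.79 to 2.60 in the same order.

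**Figure D3:**
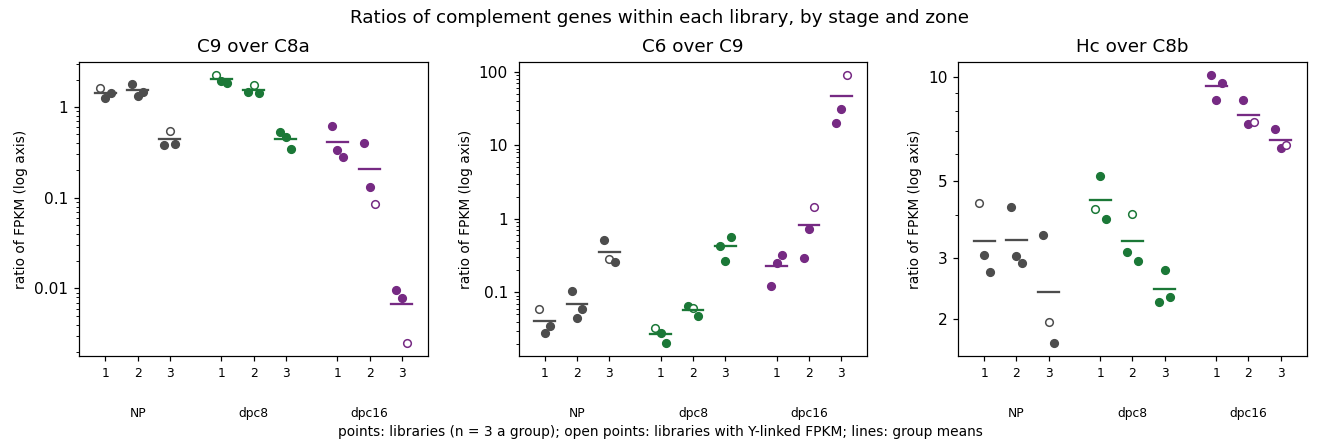
Ratios of FPKM between complement genes within each library (log axes), by stage and zone, with points for libraries, lines for means of 3 and open points for the libraries with Y-linked FPKM. C9 over C8a is lowest in dpc16 zone 3 (0.0025 to 0.0096), C6 over C9 is highest there, and Hc over C8b is 6.22 to 10.1 at dpc16 and at most 5.19 at the other stages.

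The makeup of the RNA for the part of the cascade that builds the pore is given as a description, with no test. Of the summed FPKM of Hc, C6, C8a, C8b, C8g and C9, C9 made up 19.7% ± 2.1 (SD, n = 3) in NP zone 1 and 8.28% ± 4.04 in NP zone 3. At dpc16 it made up 4.57% ± 1.89 in zone 1, 2.04% ± 1.32 in zone 2 and 0.0909% ± 0.0571 in zone 3. The share of Hc was 27.1% ± 1.1 in NP zone 1 and 43.4% ± 3.3 in dpc16 zone 1. The shares sum to 100%, so that a lower share of C9 raises the others, and the change of Hc itself in zone 1 did not pass (adjusted p = 0.552). They describe RNA and not the plasma proteins.

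Across libraries, the correlation between pairs of the 9 genes ranged widely. Over the 27 libraries, the Pearson correlation of log2(FPKM + 1) was 0.95 for C8a and C8b, 0.86 for C4b and Hc, and 0.85 for C3 and C4b. C6 and C9 had -0.08, and C9 and Cfb had 0.04. The median over the 36 pairs was 0.49. After subtraction of the group means, the median was 0.76 and the lowest pair, C6 and C8g, had 0.43. The points share libraries, depth and tissue composition, and the 6 libraries that stood apart are among them.

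**Figure D4:**
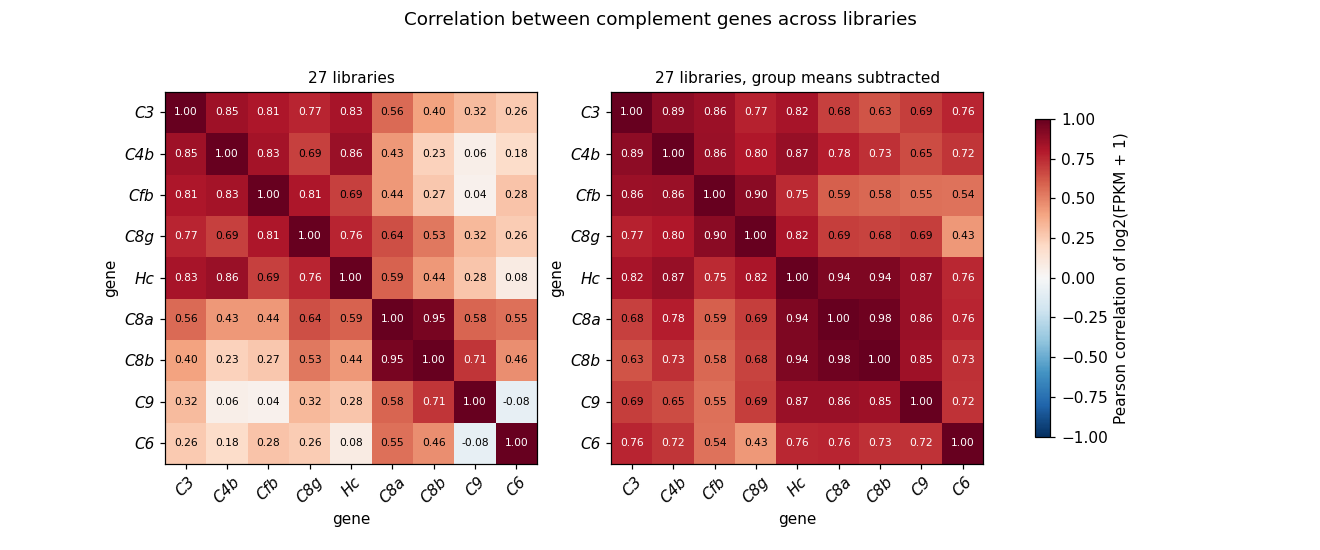
Pearson correlations of log2(FPKM + 1) between the 9 genes over 27 libraries (left) and over the same libraries after the mean of each group was subtracted (right); colour runs from -1 to 1. C6 with C9 goes from -0.08 to 0.72, and C8a with C8b is the highest pair in both panels (0.95 and 0.98).

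The genes outside the set with the closest patterns were found by the same correlation over the 27 libraries. They were Acat3 (0.92), Ces3b (0.88) and Slc38a4 (0.88) for C9, and after subtraction of group means these had 0.65, 0.67 and 0.47. For C6 they were Atrn (0.83), Wnt9b (0.82) and Ablim3 (0.82), with 0.59, 0.69 and 0.66. C3 was closest to Serping1 (0.92), the inhibitor of the first classical pathway protease, and Hc to Orm1 (0.93), an acute phase protein. C4b was closest to Itih1 (0.93), Cfb to F12 (0.96), which is coagulation factor XII, and C8g to Cyp2a12 (0.91). C8a was closest to Parp9 (0.88) and C8b to Parp14 (0.87). After subtraction of group means, the closest gene had 0.96 for C3, 0.94 for Hc, 0.93 for C4b and 0.96 for Cfb. For C8g, C8a and C8b it had 0.95, 0.89 and 0.80. These likenesses therefore hold differences between libraries of a group, among them the libraries that stood apart.

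The rest of the pathway gave few calls. Among 16 tested genes of initiation, limma called 0 in the mean over zones at dpc8 or dpc16 against NP, and 0 and 6 had an unadjusted p under 0.05, as did 3.17% and 16.3% of all genes. At dpc16 against dpc8 in the mean over zones and in zone 1 against zone 3 at dpc16, 7 of the 16 had an unadjusted p under 0.05 each time, as did 16.1% and 7.86% of all genes, and limma called 0 and 1 of them. In zone 1 against zone 3 over the stages, where 7.32% of all genes were called, 1 was higher, Cfp for properdin, the stabiliser of the alternative pathway enzyme (0.54 ± 0.13, adjusted p = 0.0393). Mbl1, a lectin that starts the lectin pathway, was lower (-0.92 ± 0.19, adjusted p = 0.0183). At dpc16 alone, Cfp had 16.2, 15.8 and 14.4 FPKM in zone 1 and 3.67, 6.02 and 2.14 FPKM in zone 3 (log2 fold change 1.81 ± 0.35, adjusted p = 0.00406). The summed FPKM of 8 macrophage markers was 100.1 to 150.3 in dpc16 zone 1 and 32.04 to 64.1 in dpc16 zone 3. Limma called 1 of the 8 higher in zone 1 there, Clec4f, where 1.55% of all genes were called. The part of these markers in the Cfp result was not tested. Among 14 tested regulators, only C4bp passed in zone 1 against zone 3 over the stages, where 7.32% of all genes were called. C4bp, which binds C4b and limits the classical pathway enzyme, was lower in zone 1 (-0.80 ± 0.17, adjusted p = 0.0208). Of the 7 receptor genes, limma called 0 in each of 14 comparisons, in which 0 to 3 had an unadjusted p under 0.05, and the shares of all genes were 0.00772% to 7.32% called and 2.74% to 19.8% unadjusted. Cfi, the protease that degrades C3b and C4b, had 0.83 ± 0.29 at dpc16 in the mean over zones (adjusted p = 0.184). C2, which lies 85 bases from Cfb and forms the enzyme of the classical pathway, had -0.36 ± 0.15 (adjusted p = 0.253), against 0.19 ± 0.24 for Cfb. C7, the remaining subunit of the pore, was between 0 and 1.58 FPKM in all libraries and was not tested.

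Several of the values can hold reads of other genes. Cfb overlaps Gm20547, a protein-coding gene on the same strand, C8a overlaps Gm17662 and C8g overlaps Fbxw5 on the opposite strand, and Hc overlaps the antisense gene Gm13449. C4b has a paralog, C4a, 65.21 kilobases away, and only uniquely mapped reads were kept. The counting is not stated to use strand, so these values are uncertain to that extent. C9 and C6 overlap no annotated gene.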

How the data were processed

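RNA from laser-captured lobular zones was sequenced in 27 libraries, 3 for each of 3 stages and 3 zones, and titles gave the groups. The deposited values are FPKM. To make them, the authors removed ribosomal RNA, trimmed reads with cutadapt, mapped them to mm10 (HISAT2 2.1.0), retained those with a unique position, and ran Cuffdiff (Cufflinks 2.2.1) on GENCODE's protein-coding genes. The table holds no read counts. The depth of 7540000 to 33410000 fragments (median 16460000) was estimated from single-transcript genes, in which 91.7% to 97.5% of low values lay within 0.1 of a whole number of fragments, and no interval was computed from it.

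The tested genes reached 1 FPKM in 3 or more libraries. On log2(FPKM + 1), limma 3.58.1 in R 4.3.3 fitted a mean for each of the 9 groups to all libraries, with an intensity trend and robust settings, because the study's test, Cuffdiff, works on reads. For values averaged over zones or stages, the unit was the mean over zones, or the difference between zones 1 and 3, of each stage and replicate number, which makes 9 units. All tests are two-sided, with Benjamini-Hochberg adjustment over the 12952 genes of each comparison at a threshold of 0.05. The fit was tested on simulated data.

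The members, the lists of pathway genes and markers, and the tests were chosen with earlier results of these data known. All 9 members are described. From the pathway lists, genes past the threshold are named, at most 4 a comparison, together with C2, C4a, C7, Cfi and 1 gene that is not reported here. Itih4 and the markers serve as context. No value of C4a was analysed here. Positions and overlaps came from GENCODE vM21 on the same build, in which all 9 identifiers were found, and promoters from RefSeq on GRCm38.p6.

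The replicate numbers recur in all groups. Same-numbered libraries of a stage deviated together at dpc16, where 9 of 9 correlations of their deviations were over 0.1 (0.26 to 0.86), but in 4 of 9 pairs in NP mice and 5 of 9 at dpc8. The libraries that stood apart entered these deviations. At dpc16 they all are replicate 3, while in NP and dpc8 mice their numbers differ. The check therefore cannot tell a shared mouse from the place of these libraries, and over all genes no pairing was established. Single genes (C8a and C8b in NP mice, C1s2 at each stage) followed the number in all 3 zones. No 2 libraries were identical. Alternatives were a pseudocount of 0.1, no filter, quantile normalization, array weights, fits of only the groups compared, the replicate block, leaving out the libraries with Y-linked FPKM of at least 5, and leaving out each library or unit.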

Additional observations from a re-analysis of the deposited data

How the results depend on the processing

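The calls of single genes were stable under most settings. Over 106 fits of the 8 called values of C9 and C6, 104 kept direction and call, 2 lost the call and 0 reversed. Those lost were C6 at dpc8 without replicate 1 of dpc8 zone 3 (-1.84, adjusted p = 0.0626) and C9 at dpc16 against NP in zone 2 with only the groups compared (0 members called, -4.02, adjusted p = 0.157), where 0.131% of all genes were called against 2.66%. With a replicate block, C9 between zones 1 and 3 was also called in NP mice (1 member, adjusted p = 0.0119) and at dpc8 (2 members with C6, adjusted p = 0.0353), where 2.18% and 3.54% of all genes were called, against 1.34% and 1.61% without it. Without the replicate block, 2 members, C9 and C8b, were called at dpc16 against NP and against dpc8 in the mean over zones (11.8% and 11.1% of all genes). There, zones of 1 replicate number, which may come from 1 mouse, count as separate units. The pairing changed no other count of members by more than 1.5 times.

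Array weights called 1, 2 and 2 members between zones in NP, dpc8 and dpc16 mice, 5 over the stages (C9, C6, Hc, C3 and C4b), 1 at dpc16 against NP in zone 1, 2 in the mean over zones, and 3 against dpc8. All genes were called more often too: 2.09%, 6.6%, 3.83%, 19.4%, 5.15%, 9.78% and 18.3% in the same order. Without the libraries with Y-linked FPKM, 2 members were called between zones in NP mice and 2 at dpc16 against NP in zone 1 (1.81% and 2.92% of all genes). In the averaged comparisons this setting also replaced replicate units by single libraries, so that the calls cannot be put down to the left-out libraries alone: it called 4 members over the stages, 6 at dpc16 against NP and 4 against dpc8 (8.18%, 16.6% and 18.7% of all genes), against 2, 2 and 2 with single libraries and none left out (5.59%, 11.8% and 11.1%). Leaving out single libraries or units gave 0 to 1 members between zones at dpc8 (0.888% to 1.42% of all genes), and 1 to 2 at dpc16 in the mean over zones against NP and against dpc8, where C4b was added without dpc16 replicate 3 (0.72 and 0.70); all genes were then called at 6.51% and 7.37%, against 3.08% and 2.14% with every unit. Depth limits C9 in dpc16 zone 3, which rests on an estimated 4.0 to 27.2 fragments. The cause of these changes was not tested.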

Other observations

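C1s2, a paralog of the classical pathway protease gene C1s1, was high in some replicate numbers and near 0 in others. In NP mice, C1s2 had 5.94, 4.80 and 4.22 FPKM in replicate 2 of zones 1, 2 and 3 and at most 0.384 FPKM in the other libraries. At dpc8, replicate 1 had 3.65, 3.43 and 4.74 FPKM in the 3 zones, and the other libraries had at most 0.0751 FPKM. At dpc16, replicates 1 and 2 had 5.58 to 8.85 FPKM and replicate 3 had at most 0.104 FPKM. The number that was high was the same in all 3 zones of a stage. The gene was chosen after its values were seen, and no test was made.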
